A study of Mus musculus with 6 samples.

Results

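Macrophages are phagocytes of the innate immune system, and their genes were followed here across 6 primary cultures of brown adipocytes. The set held 42 genes, of 22466 genes with a RefSeq transcript in the table. It comprised complement C1q, lysosomal proteins, surface and Fc receptors, MHC class II, chemokines, pan-leukocyte genes and the regulators Csf1r and Spi1. The genes were named with earlier results of these cultures in view, and the values used for the choice of a row were mean abundances over the 6 cultures: where a gene had several RefSeq transcripts, as 9 of the 42 did, the most abundant one stands for it. All 42 had a row, and 38 reached the mean of 0.5 RPKM required for the test between genotypes. Cd163, H2-Aa, Ccr2 and Cx3cr1 did not. RPKM values scale the reads of a transcript to its length and to the size of the library.

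The study asked how fuel use and respiration of brown adipocytes depend on uncoupling protein 1. Precursor cells of the interscapular brown adipose tissue of male mice, 5 to 6 wk old and of the strain 129SvEvS1, were grown to confluency and differentiated in the dish. The 3 wildtype cultures (WT replicates 10, 11 and 12) were set against cultures lacking UCP1, labelled UCP1(-/-) and here called Ucp1-KO (replicates 13, 14 and 15). Both genotypes went through the same differentiation, and no adrenergic stimulus is given for the RNA samples. The knockout affects all cells of the mouse, so that macrophages of Ucp1-KO cultures carry it as well. Which mice a culture came from, and whether mice were pooled, is not given in the sources used here, so that p-values measure the spread between these cultures only. The stromal-vascular cells from which such cultures are grown can include leukocytes of the tissue.

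Tissue macrophages depend on the receptor CSF1R, which binds the growth factors CSF1 and IL-34, and on the transcription factor PU.1, the product of Spi1. They take up antibody-coated particles through Fc receptors, whose signals pass through adaptors with immunoreceptor tyrosine-based activation motifs (ITAMs). They degrade the cargo in lysosomes and release C1q, the recognition protein of the classical complement pathway. MHC class II molecules, which present peptides to CD4 T cells, are controlled by the coactivator CIITA and are not made by all macrophages. In brown adipose tissue, macrophages lie among adipocytes and vessels and clear cell remnants.

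The values rested on library totals of 14989604 to 17727653 reads, recovered from RPKM steps. A floor of 3 reads equalled 0.0846 to 0.1001 RPKM for a transcript 2000 bases long, counting error only. Of the 42 genes, 30 had at least 10 reads in every culture, 9 had at most 3 reads in at least 1 culture, and 1 (H2-Aa) had 0 reads in a culture. Ucp1, the targeted gene, stood at 1775, 981 and 1157 RPKM in the WT cultures and at 307, 409 and 398 RPKM in the Ucp1-KO cultures, without overlap. The knockout allele still gives a remnant transcript that lacks exons and makes no functional protein. The defining markers of macrophages (Csf1r, Emr1, Cd68, C1qa, Lyz2, Tyrobp) were detected in every culture, and none was at 0.

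The macrophage genes varied together from culture to culture, and the order of the cultures cut across the genotypes. Each gene was expressed as its deviation from its own mean on the log2(RPKM + 1) scale, and the median over the 42 genes was taken in each culture. In WT cells (replicates 10, 11, 12) this median deviation reached -0.70, 0.32 and -0.12, and in Ucp1-KO cells (replicates 13, 14, 15) -0.04, 1.64 and -1.11. The highest and the lowest culture were thus both Ucp1-KO cultures, and the remaining one lay between WT cultures. Ucp1-KO replicate 14 was the highest culture for 37 of the 42 genes and Ucp1-KO replicate 15 the lowest for 32. WT replicate 11 came second for 32 genes. Among the 38 genes of sufficient abundance, 30 were highest in Ucp1-KO replicate 14 and lowest in Ucp1-KO replicate 15, against 4.94% of all 12259 genes tested.

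**Figure D1:**
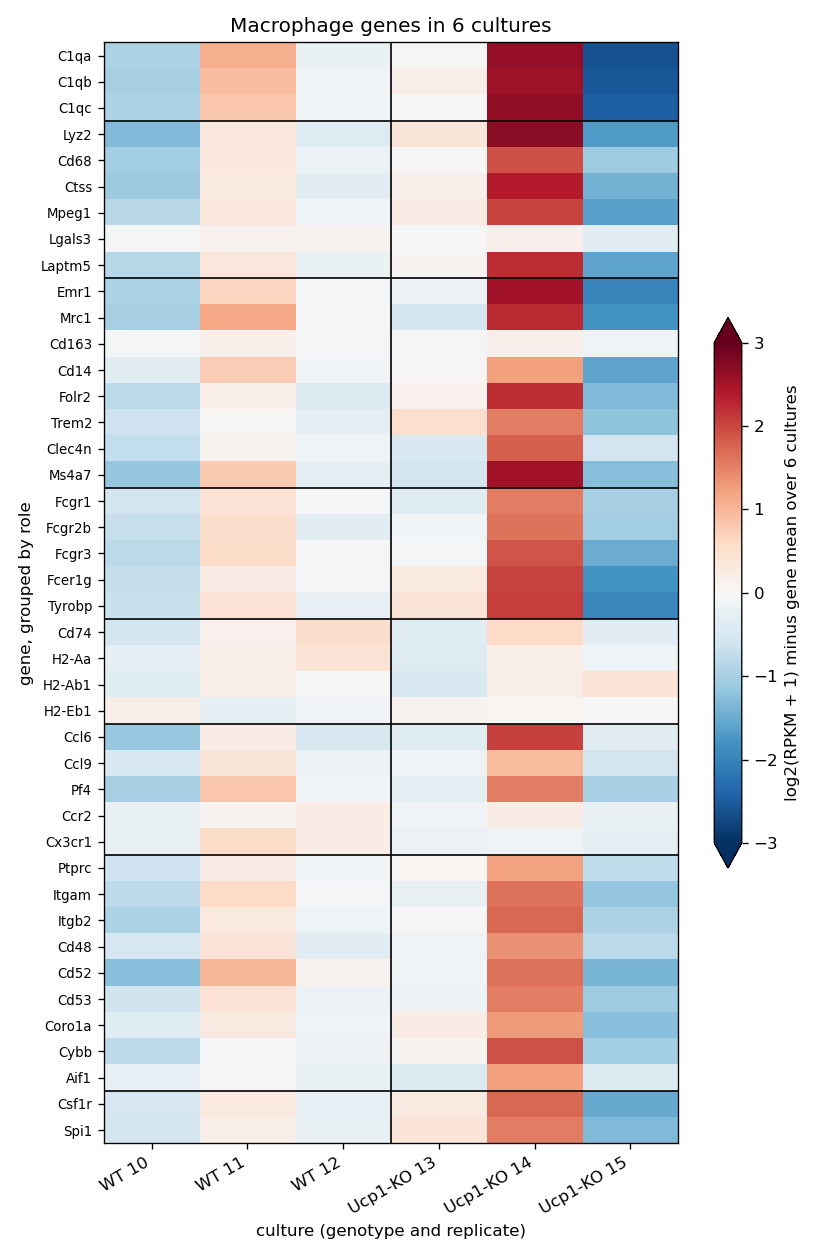
Each row is a macrophage gene, grouped by role with black lines between groups, and each column a culture. Colour gives the deviation of log2(RPKM + 1) from the mean of the gene over the 6 cultures, red for higher and blue for lower. Ucp1-KO replicate 14 is red for most genes and Ucp1-KO replicate 15 blue, whereas the 4 MHC class II genes, Cd163, Lgals3, Ccr2 and Cx3cr1 stay pale.

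In RPKM the span was wide. The summed abundance of the 42 genes was 393, 746 and 539 RPKM in the WT cultures and 611, 2032 and 296 RPKM in the Ucp1-KO cultures. Lgals3, which encodes galectin-3 and hardly varied, made up most of the sum in WT replicate 10 and Ucp1-KO replicate 15. Without it the sums were 159, 481 and 284 RPKM for WT and 374, 1766 and 103 RPKM for Ucp1-KO. The 41 genes without Lgals3 held 0.250% of all reads in Ucp1-KO replicate 14 (Wilson 95% interval 0.248 to 0.253%) and 0.0151% in Ucp1-KO replicate 15 (0.0145 to 0.0158%). Per gene, Ucp1-KO replicate 14 exceeded Ucp1-KO replicate 15 by a median ratio of 15.4 over the 31 genes with at least 10 reads in both, against 1.02 over all genes tested. Cultures of WT also differed, with a median ratio of replicate 11 to replicate 10 of 2.68 (32 genes) against 1.11 over all genes. In bulk RNA, more macrophages and more RNA of these genes per macrophage cannot be told apart.

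**Figure D2:**
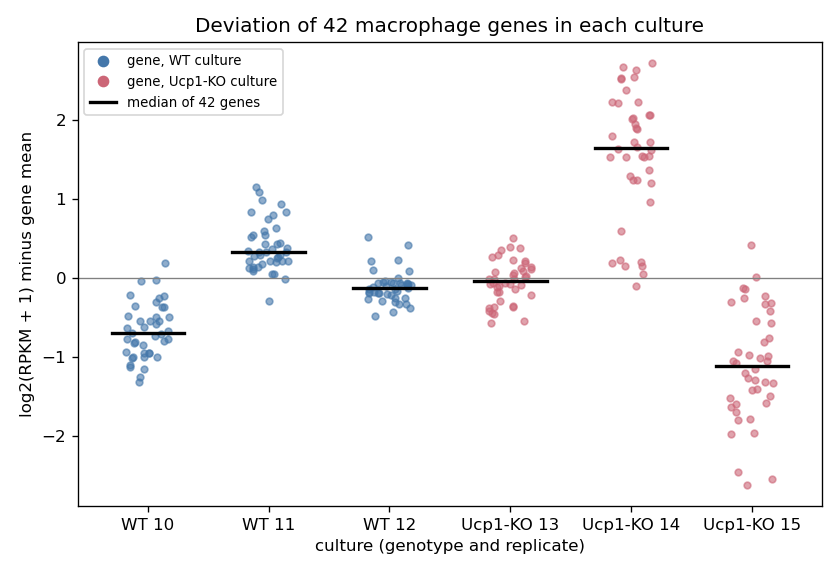
Each point is 1 of the 42 macrophage genes in 1 culture, blue for WT and red for Ucp1-KO, and the black bar is the median. The vertical axis is the deviation of log2(RPKM + 1) from the mean of the gene. The medians run from -1.11 to 1.64 within Ucp1-KO, and the 3 WT medians lie inside this span.

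The regulators Csf1r and Spi1 were also highest in Ucp1-KO replicate 14 and lowest in Ucp1-KO replicate 15. Csf1r, the receptor on which macrophage survival depends, stood at 3.39, 6.54 and 4.21 RPKM in WT and at 6.44, 19.4 and 1.15 RPKM in Ucp1-KO cultures, here and below in the order of the replicate numbers. Spi1 was listed with 1.58, 3.28 and 2.24 RPKM in WT and 3.95, 10.01 and 0.5005 RPKM in Ucp1-KO cultures. For both, Ucp1-KO replicate 14 was above and Ucp1-KO replicate 15 below all WT cultures, and their r with each other was 0.996. Ucp1-KO replicate 13 lay above all WT cultures for Spi1 and just below WT replicate 11 for Csf1r. The log2 fold change of Csf1r between genotypes was 0.31 (standard error 0.74, 95% interval -1.46 to 2.07, limma adjusted p = 0.958) and that of Spi1 0.40 (standard error 0.67, limma adjusted p = 0.940). Exons of Csf1r overlap those of Hmgxb3 on the other strand, and the library kit does not mark strand, so that reads of the overlap cannot be assigned.

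Promoters of the genes were read from RefSeq to show where the letters bound by PU.1 occur near genes that moved with Spi1. For 31 of the 42 genes a window from 250 bases before to 50 bases after the start was at hand (RefSeq, GRCm38.p6). The letters GAGGAAGT, a core of PU.1 sites, were searched on both strands and occurred in 4 of the 31 windows (12.9%), those of C1qc, Cd53, Ctss and Pf4, against 3.2% of 32851 promoters of the genome and 3.49% of 9747 promoters of genes tested here. All 4 had an r of at least 0.961 with the other macrophage genes, as had most of the 42 genes, whose median r was 0.973. Other letters were TGANTCA of AP-1, in 6 windows (19.4%, against 7.81% of all promoters and 6.27% of those of genes tested), and TATAAA of the TATA box, in 4 windows (12.9%, against 13.6% and 8.8%). A match is a description of the letters and not a binding site. The 4 windows follow 5′ to 3′ along the gene, with the match in capitals, where ACTTCCTC is the same motif read on the other strand. They lie at chr4:136892865-136893164 on the reverse strand (C1qc), chr3:106790100-106790399 on the reverse strand (Cd53), chr3:95526536-95526835 on the forward strand (Ctss) and chr5:90772185-90772484 on the forward strand (Pf4).
C1qc: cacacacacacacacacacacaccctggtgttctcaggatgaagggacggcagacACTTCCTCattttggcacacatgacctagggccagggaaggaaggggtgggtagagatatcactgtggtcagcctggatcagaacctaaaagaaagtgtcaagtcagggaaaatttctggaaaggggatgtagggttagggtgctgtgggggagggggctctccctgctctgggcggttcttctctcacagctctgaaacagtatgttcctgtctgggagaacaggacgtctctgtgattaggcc
Cd53: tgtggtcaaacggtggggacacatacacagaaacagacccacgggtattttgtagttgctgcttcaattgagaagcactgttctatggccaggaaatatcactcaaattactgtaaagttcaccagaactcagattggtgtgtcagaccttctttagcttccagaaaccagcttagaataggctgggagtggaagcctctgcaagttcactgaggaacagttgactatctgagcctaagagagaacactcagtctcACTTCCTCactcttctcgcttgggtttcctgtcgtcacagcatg
Ctss: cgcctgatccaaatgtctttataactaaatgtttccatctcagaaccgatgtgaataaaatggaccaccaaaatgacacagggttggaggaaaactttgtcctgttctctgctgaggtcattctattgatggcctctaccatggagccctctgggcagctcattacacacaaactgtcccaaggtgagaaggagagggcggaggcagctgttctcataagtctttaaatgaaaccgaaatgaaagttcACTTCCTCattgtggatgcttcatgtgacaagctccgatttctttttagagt
Pf4: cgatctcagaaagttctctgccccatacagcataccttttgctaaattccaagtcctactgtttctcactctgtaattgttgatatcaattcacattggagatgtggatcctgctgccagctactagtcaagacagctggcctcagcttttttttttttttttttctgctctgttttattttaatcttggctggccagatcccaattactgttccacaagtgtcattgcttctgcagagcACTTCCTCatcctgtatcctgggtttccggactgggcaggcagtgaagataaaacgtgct
The match began 195 bases before the annotated start in C1qc, 10 bases before it in Pf4 and 2 bases before it in Ctss, and 6 bases after it in Cd53.

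On the log2(RPKM + 1) scale the widest range over cultures belonged to complement C1q, whose chains are encoded by neighbouring genes on chromosome 4 (GRCm38.p6: C1qb from 136880126 to 136886200, C1qc from 136889801 to 136892936 and C1qa from 136895916 to 136898844). C1qa was measured at 6.71, 30.7 and 11.99 RPKM in WT and at 14.3, 91.2 and 1.42 RPKM in Ucp1-KO cultures. For C1qb the values were 9.43, 38.9 and 18.5 RPKM and 22.9, 121 and 2.58 RPKM, and for C1qc 8.95, 33.1 and 16.8 RPKM and 17.9, 120 and 2.47 RPKM. In all 6 cultures C1qb was the most and C1qa the least abundant of the chains per length, and any pair of them had an r of at least 0.997. Between the extreme Ucp1-KO cultures C1qa differed 64.3-fold (1700 against 23 reads, exact 95% counting interval 42.7 to 102), which was the largest ratio among genes with at least 10 reads in both. Despite this span the genotype difference of C1qb was 0.12 on the log2 scale, with a standard error of 1.20 and a 95% interval of -2.74 to 2.98 (limma adjusted p = 0.993).

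Of the lysosome and phagosome genes, 5 of 6 followed the common order with an r of at least 0.9. Lyz2, which encodes the lysozyme of macrophages, stood at 39.3, 125 and 75.9 RPKM in WT and at 127, 657 and 29.98 RPKM in Ucp1-KO cultures, and was the most abundant of the 42 genes in Ucp1-KO replicate 14. Between genotypes it differed by 0.91 on the log2 scale, with a standard error of 1.04 (limma adjusted p = 0.910). Lyz2 has a close relative, Lyz1, and only uniquely assigned reads were counted. Cd68, a glycoprotein of the late endosome, varied less, with 9.59, 25.9 and 18.1 RPKM in WT and 20.3, 81.4 and 9.20 RPKM in Ucp1-KO cultures. Ctss, which encodes the protease cathepsin S, Mpeg1, a pore-forming protein of phagosomes, and Laptm5, a lysosomal membrane protein, differed 15.4-fold, 16.9-fold and 22.1-fold between Ucp1-KO replicates 14 and 15. Galectin-3 was the exception. Lgals3 stood at 234, 265 and 255 RPKM in WT and at 237, 266 and 193 RPKM in Ucp1-KO cultures, a span of 1.37-fold with an r of 0.811. The genotypes differed by -0.12 on the log2 scale (limma standard error 0.14, adjusted p = 0.906). A separate list of 12 lysosomal genes used by all cells had a median r of 0.785 with the 42 genes. Of the 12, 7 were highest in Ucp1-KO replicate 14 and 8 lowest in Ucp1-KO replicate 15, against 15% and 26.6% of all genes tested. Their sums were 3407 RPKM and 2237 RPKM in these cultures, and only 2 of the 12, Grn and Ctsc, reached an r of 0.9.

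Surface and scavenger receptors differed in how far they followed. Emr1, which encodes the F4/80 antigen used to identify mouse macrophages, stood at 2.74, 10.2 and 5.89 RPKM in WT and at 5.40, 40.8 and 0.843 RPKM in Ucp1-KO cultures (r = 0.997 with the other genes). Mrc1, the mannose receptor, reached 1.48, 10.1 and 3.83 RPKM and 2.41, 22.3 and 0.427 RPKM. In WT replicate 11 it was 6.82-fold above WT replicate 10, the largest ratio of this pair among genes with at least 10 reads in both. Trem2, a lipid-sensing receptor, had 3.50, 6.17 and 4.77 RPKM in WT and 8.88, 19.3 and 2.02 RPKM in Ucp1-KO cultures, so that Ucp1-KO replicate 13 exceeded every WT culture. Folr2, a folate receptor of resident macrophages, had 6.07, 13.2 and 8.14 RPKM and 12.4, 56.1 and 3.95 RPKM. The genotype difference was 0.68 on the log2 scale (limma standard error 0.82, adjusted p = 0.912), and part of its exons is shared with an antisense gene. Cd14, the co-receptor for lipopolysaccharide, spanned 1.11 to 14.03 RPKM and had the lowest log2 fold change of all (-0.21, standard error 0.68). Clec4n and Ms4a7 reached 5.07 and 14.9 RPKM in Ucp1-KO replicate 14 and rested on 3 and 2 reads in Ucp1-KO replicate 15. Cd163, a haemoglobin scavenger receptor, was scarce with 0.0151 to 0.237 RPKM, or 1 to 18 reads.

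All 5 Fc receptor and ITAM adaptor genes were highest in Ucp1-KO replicate 14 and lowest in Ucp1-KO replicate 15, with an r between members of the group of 0.930 or more. Tyrobp, which encodes the adaptor DAP12, was measured at 7.21, 16.5 and 9.91 RPKM in WT and at 16.0, 53.5 and 2.34 RPKM in Ucp1-KO cultures. Fcer1g, the common chain of Fc receptors, had 6.23, 13.1 and 10.3 RPKM and 13.5, 46.8 and 2.43 RPKM. Both were near WT replicate 11 in Ucp1-KO replicate 13. Tyrobp differed between genotypes by 0.33 on the log2 scale (limma standard error 0.93, adjusted p = 0.968). Fcgr3, an activating receptor for immunoglobulin G, had the highest r of all 42 genes with the others (0.998), and stood at 2.64, 8.37 and 5.17 RPKM in WT and 5.13, 22.6 and 1.28 RPKM in Ucp1-KO cultures. The inhibitory Fcgr2b spanned 1.28 to 13.6 RPKM and the high-affinity receptor Fcgr1 0.0515 to 5.02 RPKM, where the lower value is 2 reads. Fcgr2b and Fcgr3 resemble each other in sequence, and exons of Fcgr2b overlap an antisense gene.

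Of the 9 pan-leukocyte and cytoskeletal genes, all were highest in Ucp1-KO replicate 14, and 7 were lowest in Ucp1-KO replicate 15. Ptprc, the leukocyte common antigen CD45, had 0.362, 1.42 and 0.959 RPKM in WT and 1.18, 3.82 and 0.232 RPKM in Ucp1-KO cultures. Itgb2, the common chain of leukocyte integrins, stood at 1.45, 4.75 and 3.33 RPKM and 3.79, 14.6 and 1.47 RPKM. On the log2 scale the genotype difference was 0.53 (limma standard error 0.66, adjusted p = 0.915). For Itgb2 the lowest culture was WT replicate 10, which lay just under Ucp1-KO replicate 15. Its partner chain Itgam spanned 0.399 to 8.59 RPKM, and Cybb, the catalytic subunit of the phagocyte NADPH oxidase, 1.08 to 14.7 RPKM. The membrane proteins Cd53, Cd52 and Cd48 and the actin-binding coronin Coro1a differed 10.9-fold, 22.2-fold, 24.6-fold and 35.0-fold between Ucp1-KO replicates 14 and 15, of which the last 3 rested on 3 or 4 reads in the latter. For Cd48, with 3 reads, the exact 95% counting interval was 8.15 to 122. Aif1, which encodes the calcium-binding protein IBA1, was above 0.5 RPKM in Ucp1-KO replicate 14 only, with 36 reads there and 7 or fewer elsewhere. Exons of Itgam, Cd52 and Coro1a overlap another gene.

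Chemokines and their receptors were less uniform, with a median r of 0.691 within the group. Pf4, a platelet chemokine also made by resident macrophages, nearly followed the order with 1.99, 9.68 and 4.70 RPKM in WT and 3.90, 16.3 and 2.04 RPKM in Ucp1-KO cultures. Ccl9 spanned 5.15 to 16.5 RPKM, with a log2 fold change of 0.20 (standard error 0.40, limma adjusted p = 0.951). Ccl6 had 0.775, 3.50 and 1.77 RPKM and 2.03, 15.2 and 2.14 RPKM, so that Ucp1-KO replicate 15 was above 2 of the 3 WT cultures and not the lowest. It had the largest log2 fold change of the tested genes (0.93, standard error 0.68, 95% interval -0.69 to 2.56, limma adjusted p = 0.878). Without WT replicate 11 its genotypes did not overlap. The receptors of monocytes were scarce. Cx3cr1, the fractalkine receptor, was highest in the WT cultures 11 and 12 with 0.803 and 0.439 RPKM (50 and 29 reads), against 0.0628 RPKM in WT replicate 10 and 0.0996, 0.156 and 0.0358 RPKM in Ucp1-KO cultures (2 to 10 reads). Its r with the other genes was 0.322. Ucp1-KO replicate 14, the highest culture for 37 of the 42 genes, held 0.194 times the level of WT replicate 11. Exons of Cx3cr1 overlap an antisense gene. Ccr2, the receptor that guides monocytes out of the bone marrow, had 0.0163, 0.267 and 0.393 RPKM in WT and 0.121, 0.388 and 0.0186 RPKM in Ucp1-KO cultures, with 25 reads or fewer and an r of 0.786.

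MHC class II stood apart from the other groups. H2-Ab1, a beta chain, had 5.20, 8.19 and 6.998 RPKM in WT and 4.88, 8.22 and 9.67 RPKM in Ucp1-KO cultures, and Ucp1-KO replicate 15, the lowest culture for most genes, was its highest. Its ratio of Ucp1-KO replicate 14 to 15 was 0.850 (169 against 173 reads, exact 95% counting interval 0.683 to 1.06). H2-Eb1, the other beta chain, had 1.90, 1.08 and 1.39 RPKM and 1.74, 1.63 and 1.56 RPKM, and its r with the other macrophage genes was -0.219, the only negative one. H2-Aa, the alpha chain that pairs with H2-Ab1, was near the limit of detection with 0.0548, 0.504 and 0.739 RPKM and 0, 0.488 and 0.187 RPKM, or 0 to 14 reads. At 0 reads in Ucp1-KO replicate 13, up to 3 reads cannot be told from none. Cd74, the invariant chain, had 0.335, 1.13 and 1.80 RPKM and 0.506, 1.94 and 0.545 RPKM (r = 0.736), and a microRNA gene lies within its exons. The lowest r of a pair within the group was -0.700, and H2-Ab1 differed between genotypes by 0.11 on the log2 scale (limma standard error 0.25, adjusted p = 0.954). Ciita was listed with 3 reads or fewer in each culture.

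MHC class II promoters share a set of elements that includes the Y box, bound by NF-Y, and the promoters of H2-Aa and H2-Eb1, which departed from the common order, are shown because they hold its letters. The letters CTGATTGG, searched on both strands, occurred in 2 of 31 windows (6.45%), H2-Aa and H2-Eb1, against 4.1% of all promoters and 6.65% of genes tested. The windows lie at chr17:34287774-34288073 on the reverse strand and chr17:34305617-34305916 on the forward strand (RefSeq, GRCm38.p6), with the Y box in capitals.
H2-Aa: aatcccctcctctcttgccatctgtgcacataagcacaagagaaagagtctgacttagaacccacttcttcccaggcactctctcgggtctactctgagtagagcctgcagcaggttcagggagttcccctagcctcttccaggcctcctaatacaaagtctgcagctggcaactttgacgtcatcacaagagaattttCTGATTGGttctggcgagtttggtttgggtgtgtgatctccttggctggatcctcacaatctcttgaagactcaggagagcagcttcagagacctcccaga
H2-Eb1: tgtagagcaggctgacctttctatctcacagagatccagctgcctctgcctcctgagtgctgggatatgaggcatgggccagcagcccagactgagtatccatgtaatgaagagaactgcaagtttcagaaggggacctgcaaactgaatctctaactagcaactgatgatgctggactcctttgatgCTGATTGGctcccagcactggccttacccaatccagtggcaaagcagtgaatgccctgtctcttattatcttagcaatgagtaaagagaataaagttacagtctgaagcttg
The Y box began 51 bases before the start of H2-Aa and 62 bases before that of H2-Eb1.

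Covariation was measured as Pearson's r of each gene with the mean deviation of the other 41 over the 6 cultures. As the genes were named as macrophage genes with earlier results known, these values are a description, and all genes of a culture share its library and depth. The median r was 0.973 (range -0.219 to 0.998), and 32 of the 42 genes reached 0.9. The share of all 12259 genes tested with an r of at least 0.9 was 3.03%, and their median r was 0.131. Of the 861 pairs of genes, 56.3% had an r of at least 0.9 and 50 a negative one, with a median of 0.927. The genes below 0.9 were the 4 of MHC class II, Cx3cr1, Ccr2, Cd163, Ccl6, Lgals3 and Aif1. Leaving out Ucp1-KO replicates 14 and 15, the cultures farthest from the median, lowered the median r to 0.917 and the number of genes at 0.9 or more to 23. Taken as deviations from the mean of the own genotype, the median r was 0.979 and 34 genes reached 0.9. The share of all genes at this r was not taken in either repeat, and with fewer cultures a high r is reached more easily. The range over cultures of a tested macrophage gene was 2.89 on the log2 scale at the median, against 0.455 for all genes, and 0.489% of all genes had a range as large.

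No difference between the genotypes was detected for these genes. No macrophage gene passed an adjusted p of 0.05 (limma on log2(RPKM + 1)), and the background was 0% of 16865 transcripts. Ucp1, the targeted gene, was thus not called either. The study's own comparison with another test did list differential genes, Ucp1 among them but none of these 42. At an unadjusted p below 0.05, 0 of the 38 tested macrophage genes were called, against 5.54% of all transcripts, or 935. The smallest unadjusted p was 0.217 in limma (Ccl6). The ranges of WT and Ucp1-KO overlapped for all 42 genes, whereas 11.2% of transcripts did not overlap. By exact permutation of the 3 against 3 cultures, two-sided p-values lay between 0.30 (Cx3cr1) and 1, where 0.10 is the smallest that the design allows. The log2 fold changes were between -0.21 and 0.93, above 0 for 34 genes and below for 4, with a median of 0.28 against -0.0016 over all transcripts. The median standard error was 0.69, compared with 0.136 for all transcripts, and the 95% interval held 0 for all 38 genes. The difference between genotype means made up a median of 3.37% of the variance over the cultures for the 38 tested genes, at most 21.6% (Ccl6), compared with 14.1% for all genes tested. For Cx3cr1, which was too scarce for the limma test, it made up 38.3%. With intervals of this width, differences of several-fold in either direction were not detectable for most of these genes.

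**Figure D3:**
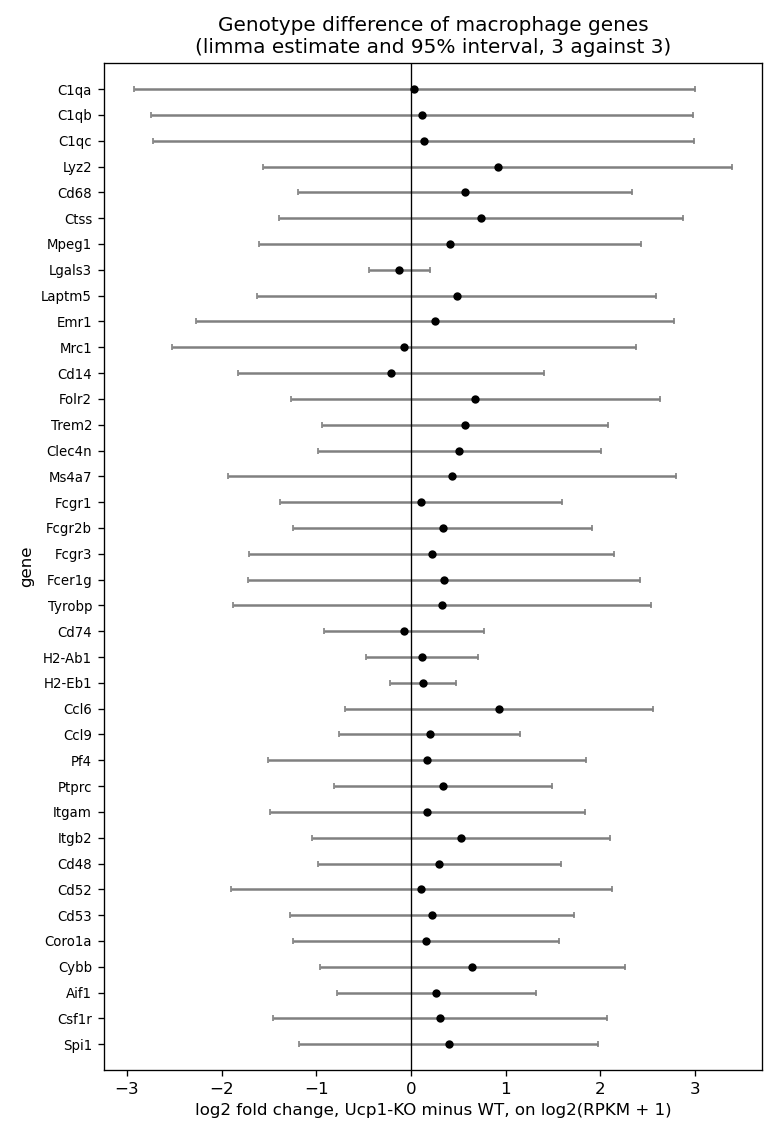
Points give the log2 fold change of Ucp1-KO minus WT on log2(RPKM + 1) for the 38 tested macrophage genes, and bars the 95% interval from limma with 3 cultures a genotype. All 38 intervals hold 0. The narrow ones belong to Lgals3, H2-Eb1 and H2-Ab1 and the widest to the C1q genes.

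The direction of the genotype difference turned with single cultures. Without Ucp1-KO replicate 14 3 of the 38 log2 fold changes were above 0, with a median of -0.42. Without Ucp1-KO replicate 15 the median was 1.07, and 37 were above 0. In the latter case 6 genes passed an unadjusted p of 0.05 in limma, all higher in Ucp1-KO, against 3.12% of all transcripts in this direction. They were Trem2 (log2 fold change 1.31, standard error 0.34), Spi1 (1.16, 0.38), Lyz2 (1.99, 0.77), Tyrobp (1.39, 0.54), Csf1r (1.15, 0.45) and Fcer1g (1.33, 0.53), each with a limma adjusted p of 0.838. Lyz2, Trem2, Fcer1g, Cybb and Spi1, 5 of the 42 genes, then also lay above every WT culture in both remaining Ucp1-KO cultures, against 12% of all transcripts, a share near that of the 42 genes. Ucp1-KO replicate 13 was close to WT replicate 12, with a median ratio of 1.17 over the 36 genes with at least 10 reads in both, and it was the higher for 26 of the 42 genes. Compared with WT replicate 11 its median ratio was 0.650, and it was the higher for 6 genes.

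Other macrophage genes, 79 in 9 lists, behaved alike in part. Of the 60 tested, 36 had an r of at least 0.9 with the 42 genes, against 3.03% of all genes tested. Of the same 60, 46 were highest in Ucp1-KO replicate 14 and 41 lowest in Ucp1-KO replicate 15, against 15% and 26.6% of all genes tested. At an unadjusted p below 0.05 in limma 3 of the 60 were higher in Ucp1-KO, against 2.3% of all transcripts, and 0 were lower. Without overlap between WT and Ucp1-KO were 2 of the 60, against 11.2% of all transcripts. All 10 tested kinases and adaptors of phagocyte signalling reached 0.9, among them Syk, which binds ITAMs, with 0.540, 1.36 and 0.962 RPKM in WT and 0.874, 3.85 and 0.445 RPKM in Ucp1-KO cultures. All 5 genes of the NADPH oxidase list, Rac2 among them, reached it as well, led by Ncf4 (r = 0.996). Of the growth factors and transcription factors, 5 of 8 did, including Irf8, a partner of PU.1, with 0.435, 1.33 and 0.758 RPKM and 0.788, 3.34 and 0.118 RPKM. The ligands of CSF1R did not. Csf1 stood at 103, 61.1 and 67.8 RPKM in WT and 102, 52.9 and 42.4 RPKM in Ucp1-KO cultures (r = -0.128), and Il34 between 2.63 and 3.96 RPKM (r = -0.377). The counts at 0.9 were 6 of 9 for pattern recognition receptors, 3 of 6 for further scavenger receptors, 2 of 3 for further antigen presentation, 4 of 8 for classical and 1 of 3 for alternative activation.

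The list of lipid-associated and osteoclast-like macrophage genes had none of its 8 genes at an r of 0.9, and it held the 3 genes of the 60 that passed an unadjusted p of 0.05 as higher in Ucp1-KO. Gpnmb, a glycoprotein of lysosomes, had 12.1, 12.6 and 14.5 RPKM in WT and 25.4, 49.3 and 15.3 RPKM in Ucp1-KO cultures without overlap (log2 fold change 0.99, standard error 0.37, limma adjusted p = 0.868). Mmp12, the macrophage elastase, had 9.11, 16.1 and 17.6 RPKM and 23.7, 45.9 and 20.01 RPKM, also without overlap (0.97, 0.35, limma adjusted p = 0.868). Acp5, which encodes tartrate-resistant acid phosphatase, had 25.1, 18.7 and 15.6 RPKM and 40.5, 28.6 and 23.2 RPKM with overlap. None passed adjustment. Of the other 5 genes, none of which passed the unadjusted threshold, Cd9, Ctsk and Spp1 had log2 fold changes of -0.55, -0.25 and -0.24, and Lipa and Atp6v0d2 of 0.067 and 0.48. The number higher at the unadjusted threshold was 1 without WT replicate 10, 11 or 12 or Ucp1-KO replicate 14 (2.96%, 0.978%, 1.07% and 1.47% of all transcripts), 4 without Ucp1-KO replicate 15 (3.12%) and 2 without Ucp1-KO replicate 13 (3.88%), where 1 was lower (5.27%), a repeat added after the values were seen. With median-of-ratios scaling it was 2 (2.37%), and without a minimum abundance 0 (2.61%).

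Markers of other cell types were read in the same cultures. Those of lymphocytes were at or near 0: none of 9 T and NK cell genes exceeded 0.164 RPKM, and 3 of 4 B cell genes were at 0 in all cultures. Neutrophil genes stayed at 1.07 RPKM or less, mast cell genes at 1.47 and dendritic cell genes at 2.54 RPKM or less. Endothelial genes summed to 3.17, 38.9 and 17.0 RPKM in WT and 7.80, 17.5 and 7.201 RPKM in Ucp1-KO cultures, and all 5 tested were highest in WT replicate 11. Their median r with the macrophage genes was 0.599. Of 9 tested stromal genes, 8 were highest in WT replicate 11, with sums of 725, 1690 and 1017 RPKM and 986, 915 and 623 RPKM and a median r of 0.282. Mural cell genes had a median r of -0.0456. In Ucp1-KO replicate 15, 4 of 5 mural, 4 of 9 stromal and 1 of 5 endothelial genes were lowest, against 26.6% of all genes tested. At an unadjusted p below 0.05 in limma 2 of the 9 stromal genes (Dcn, log2 fold change -0.85, and Lum, -1.20) and 1 of 5 mural genes (Cspg4, -0.47) were lower in Ucp1-KO, against 3.24% of all transcripts, and none passed adjustment. Values of WT and Ucp1-KO lay apart for 3 of 9 stromal genes, 1 of 5 mural genes and 1 of 8 adipocyte genes (Cebpa), against 11.2% of all transcripts. WT replicate 11, which held the second-highest macrophage level, was thus the highest for endothelial and stromal genes, and their part in its macrophage values was not tested. The 8 adipocyte genes summed to 30849 to 34699 RPKM in all cultures (median r -0.197), and none of them was lowest in Ucp1-KO replicate 15. Most of this sum was Fabp4, with 26399 to 29312 RPKM, so that it says little about the others. Cidea ran from 615 RPKM in WT replicate 11 to 1371 RPKM in Ucp1-KO replicate 15.

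**Figure D4:**
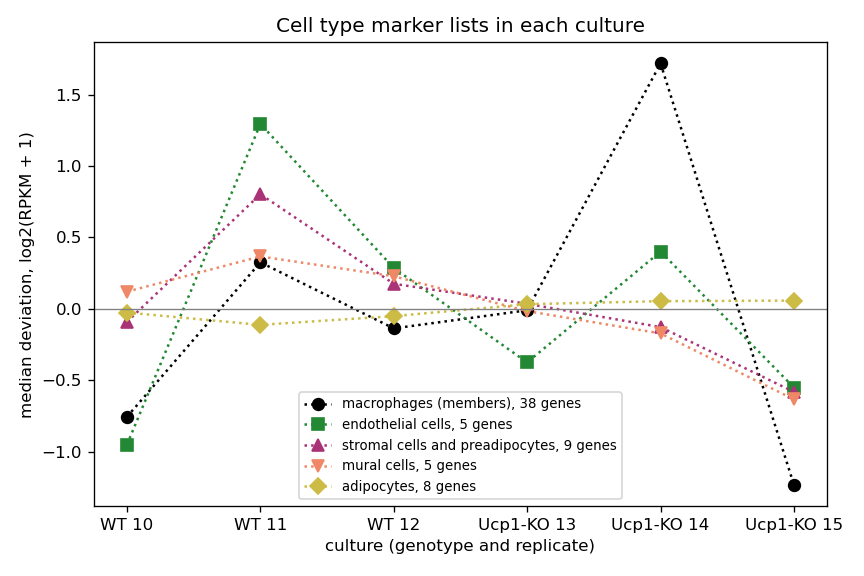
For each culture the points give the median deviation of log2(RPKM + 1) from the gene mean over the tested genes of a marker list, with dotted lines joining the points of a list. Macrophage genes peak in Ucp1-KO replicate 14, endothelial and stromal genes in WT replicate 11, and adipocyte genes stay near 0.

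Outside the lists, the 15 genes with the highest r among those with a range of at least 2.89 are given by this measure of likeness alone. Lcp1, which encodes the actin-bundling L-plastin of leukocytes, came first with 3.06, 10.1 and 6.13 RPKM in WT and 6.81, 23.3 and 1.89 RPKM in Ucp1-KO cultures (r = 0.995). C3ar1, the receptor for the complement fragment C3a, followed with 3.69, 8.22 and 5.29 RPKM and 7.202, 30.7 and 1.63 RPKM (r = 0.990). The others included Slfn2, Nckap1l, Ms4a6d, Adam8, Alox5ap, Lilrb4, C5ar1, Clec4a1, Pld4, Cfp, Cd72 and F13a1, the last with an r of 0.955. Of 41 genes outside the 42 with a range this large, 17 had an r of at least 0.9.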

How the data were processed

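RNA of 3 WT and 3 Ucp1-KO cultures was prepared with the TruSeq v2 kit, which does not mark strand, and sequenced to single reads (50 bases). Mapping was to NCBI build 38, and the authors assigned unique reads to known transcripts and deposited RPKM values per transcript. The labels name CASAVA and bcl2fastq, without versions. Groups and replicate numbers came from the sample titles, the numbers are not shared between genotypes, and all 6 value columns matched a culture.

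The 28890 RefSeq rows (of 168326) were used, and of these the 16865 with a mean of at least 0.5 RPKM (12259 genes) were compared by limma 3.58.1 in R 4.3.3 (empirical Bayes with trend, log2(RPKM + 1), no covariates), with Benjamini-Hochberg adjustment over all of them. Because 1 RPKM was added, fold changes of rare transcripts understate their ratios. Single genes were compared by exact two-sided permutation tests. Library totals were recovered from the RPKM steps of Ensembl transcripts with GENCODE M21 lengths, about 95% of whose low values came out whole within 0.05 reads. With them 99.98% of tested rows gave whole reads (tolerance 0.01). The closest pair of cultures (WT replicates 11 and 12) had a chi-square of 10.8 per degree of freedom over transcripts, so that no library was a copy of another. No molecular identifiers were used, and counting intervals cover counting error only. A run of the model on simulated reads used a spread set in advance, so that it does not show how the model performs at the spread of these genes.

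The 42 genes and all lists were chosen with earlier results of these data known. Genes are named as lead genes of their role, or where they pass the unadjusted threshold, do not overlap between genotypes or depart from the common order, and beyond the lists as the 15 with the highest r and a range of at least the median of the members. Other steps ran in Python 3.11.15 (scipy 1.17.1, pandas 2.3.3, numpy 2.4.6, matplotlib 3.10.9). A few single genes named by this rule are left out of the text. Alternatives were a constant of 0.1 RPKM, no minimum, 1 transcript per gene, rows of all annotations, median-of-ratios scaling, limma-voom on recovered reads and leaving out each culture.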

Additional observations from a re-analysis of the deposited data

How the results depend on the processing

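No adjusted p below 0.05 was found for any transcript in 12 of 13 settings, limma-voom on recovered reads included. At an unadjusted p below 0.05 there were 935 calls as reported, 894 with limma-voom, 317 to 1754 with 1 culture left out, and 5193 of 95358 rows of all annotations. Without a minimum abundance there were 22 calls among 28890 transcripts, none of them a macrophage gene. The number of macrophage genes at an unadjusted p below 0.05 was 0 to 6 with 1 culture left out, the 6 without Ucp1-KO replicate 15, and 0 under every other alternative. Their median log2 fold change was -0.42 to 1.07 with 1 culture left out, and 0.22 to 0.29 under the other alternatives. The number without overlap between genotypes was 0 to 5 with 1 culture left out: 3 without WT replicate 10, 1 each without WT replicate 11, Ucp1-KO replicate 13 or Ucp1-KO replicate 14, and 5 without Ucp1-KO replicate 15. Over all transcripts the shares without overlap were 32.8%, 14.4%, 27.8%, 17.9% and 20.5% in these settings and 16.7% without WT replicate 12. Leaving out 1 culture turned the sign for the following genes, whose log2 fold changes then lay between -1.12 and 1.42 (C1qb, which also turned to -0.35 without WT replicate 10), -0.23 and 0.0017 (Lgals3), -0.26 and 1.51 (Folr2), -0.62 and 1.39 (Tyrobp), -0.064 and 0.37 (H2-Ab1, -0.041 without WT replicate 10), -0.23 and 0.52 (Ccl9), -0.20 and 1.13 (Itgb2), -0.48 and 1.15 (Csf1r) and -0.21 and 1.99 (Lyz2). Ccl6 kept its sign throughout. The order of the 6 cultures by median deviation was the same under all 5 alternatives, and the median r was 0.944 to 0.985 with 1 culture left out. No paired analysis was possible because the genotypes share no replicate numbers. Depth limits statements on the 9 genes with at most 3 reads in a culture. The number of cultures limits the comparison of genotypes.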
